A study of Bos taurus with 46 samples.

Results

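GABARAPL2, NRIP3 and IL4I1 are the 3 genes, of 30675 NCBI genes in the count table, that ranked first when the leukocyte transcriptomes of heifers carrying 2 fetuses were compared with those of heifers carrying 1 fetus on day 105 of gestation (D105). They were selected on that D105 comparison, so their D105 difference is described here and not tested. The same 23 heifers had also been sampled on day 55 (D55), and those 23 libraries took no part in the choice. All 3 genes passed the filter on low counts in every comparison below.

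The study sequenced RNA of circulating maternal leukocytes (white blood cells, WBC) in search of markers of large offspring syndrome (LOS), an overgrowth of the fetus seen after assisted reproduction in cattle. The recipients were Angus crossbred heifers of synchronized estrus, and each gave 1 library on D55 and 1 on D105, 46 in all. Blood was drawn from the tail vein into EDTA tubes, the buffy coat was taken after centrifugation and the red cells were lysed, so no leukocyte type was sorted out, and the methods name no step that removes platelets. The 3 treatment groups were AI, 8 heifers that conceived by artificial insemination; IVP-Normal, 6 heifers that carried in vitro produced fetuses of normal weight; and IVP-LOS, 9 heifers that carried overgrown in vitro produced fetuses.

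The IVP embryos came from B. t. taurus oocytes and semen of 1 Brahman (B. t. indicus) bull, so those fetuses were crosses of the subspecies, and each IVP recipient received 2 embryos. The number of fetuses is not in the sample labels and was taken from the study's list of dams. The 4 heifers that carried 2 fetuses were 628 and 688 in IVP-Normal, 557 and 604 in IVP-LOS. The other 19 carried 1 fetus: 8 AI, 4 IVP-Normal and 7 IVP-LOS. No AI heifer carried 2, so within the 23 heifers the number of fetuses is partly tied to the method of conception. Per the study, heifer 604 and heifer 664, the latter with 1 fetus, carried the 2 largest LOS fetuses. Its clustering set these dams apart, and it compared them with all other animals. The labels also place every library in 1 of 2 sets: all D55 libraries and all IVP-Normal libraries are "New", and the D105 libraries of AI and IVP-LOS are "BACKUP". Heifers 557 and 604 were therefore in BACKUP on D105, and 628 and 688 in New.

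The 3 genes have unlike roles. GABARAPL2 encodes a small ubiquitin-like protein of the ATG8 family, which is joined to lipid on the forming autophagosome and recruits cargo receptors to it; autophagy is the route by which a cell encloses part of its own content and delivers it to the lysosome. NRIP3 is named for its interaction with nuclear receptors and has a fold related to retroviral aspartyl proteases; its role in blood cells is little described. IL4I1, first found as a gene induced by interleukin-4 in B cells, encodes a secreted oxidase that breaks down phenylalanine, tyrosine and tryptophan. It is made by antigen-presenting cells and activated B cells, limits T cell growth, and yields tryptophan products that act on the aryl hydrocarbon receptor (AHR).

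Levels are given as CPM, the reads of a gene scaled to the library's reads on genes, with TMM factors over the 46 libraries. They serve to compare heifers for 1 gene, not 1 gene with another, because the transcript lengths were not used. The libraries held 18692653 to 24502012 reads on genes. GABARAPL2 was read 1715 to 3375 times per library, IL4I1 27 to 177 times and NRIP3 8 to 538 times. The lowest NRIP3 count, 8 reads in AI heifer 533 on D105, has an exact 95% Poisson interval of 3.45 to 15.8 reads, so counting error is not small for that gene; such intervals cover counting error only.

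On D105 all 3 transcripts stood higher in the heifers with 2 fetuses. GABARAPL2 was at 138 CPM in heifer 688, 143 in 557, 150 in 628 and 185 in 604. The 19 heifers with 1 fetus had a lowest value of 86.1, a median of 105 and a highest of 125 CPM, the last in AI heifer 590. The groups did not overlap, and heifer 604 was set apart from the other 3 by a gap wider than the whole spread of those 3. Group means were 154 ± 21.3 CPM (SD, n = 4) and 106 ± 10.6 CPM (n = 19), a log2 fold change of 0.52 ± 0.08 (SE) in the edgeR fit.

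NRIP3 on D105 was at 4.57 CPM in heifer 628, 4.62 in 688, 6.90 in 557 and 31.3 in 604. With 1 fetus it ranged from 0.354 CPM in AI heifer 533 to 3.74 CPM in IVP-LOS heifer 602, with a median of 1.62. Again no heifer with 1 fetus reached the lowest heifer with 2, and the mean of 11.8 ± 13.0 CPM (SD, n = 4) was carried by heifer 604. The mean was 1.85 ± 0.947 CPM (n = 19) with 1 fetus, and the log2 fold change 2.65 ± 0.41 (SE).

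IL4I1 on D105 was at 3.23 CPM in heifer 688, 3.62 in 628, 5.02 in 557 and 10.3 in 604. In the 19 heifers with 1 fetus it ranged from 1.37 to 3.33 CPM with a median of 2.17. One of them, AI heifer 609 at 3.33 CPM, lay above heifer 688, so these groups overlapped at their edge. Means were 5.54 ± 3.26 CPM (SD, n = 4) against 2.16 ± 0.548 CPM (n = 19), a log2 fold change of 1.34 ± 0.22 (SE).

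Across the 16270 genes of this comparison, 12 were called at an FDR of at most 0.05 (0.0738%), all of them higher with 2 fetuses, and the 3 genes were ranks 1 to 3 among them by the rule that chose them. All 4 heifers with 2 fetuses lay above all 19 with 1 in 6 genes (0.0369%), GABARAPL2 and NRIP3 among them. In 10.7% of genes all 4 heifers with 2 fetuses lay above the median of the 19, as in all 3 genes here. The next 2 genes in rank were TUBA4A, an alpha-tubulin abundant in platelets, and S100A1, a calcium-binding protein. TUBA4A stood at 428 ± 401 CPM with 2 fetuses and 141 ± 42.2 CPM with 1 (log2 fold change 1.58 ± 0.27), and S100A1 at 29.8 ± 29.7 and 6.36 ± 3.47 CPM (2.21 ± 0.39). In both, as in NRIP3, the SD with 2 fetuses was close to the mean.

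**Figure D1:**
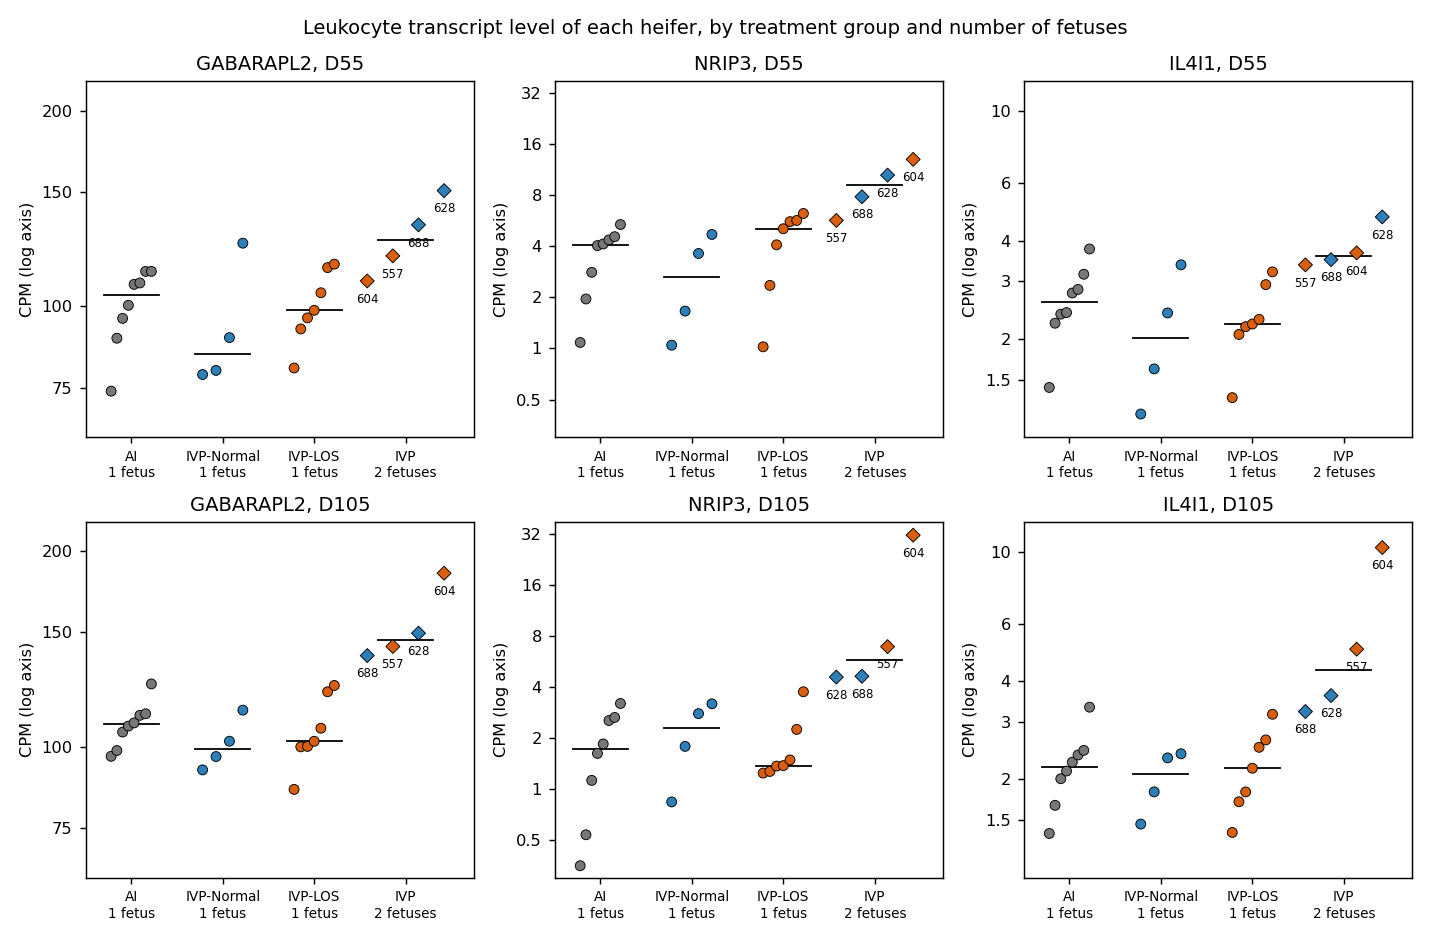
Level of GABARAPL2, NRIP3 and IL4I1 in each heifer on D55 (upper row) and D105 (lower row), in CPM on a log axis, by treatment group for the 19 heifers with 1 fetus (circles) and for the 4 heifers with 2 fetuses (diamonds with heifer numbers; blue IVP-Normal, orange IVP-LOS); lines are group medians. On D105 the diamonds of GABARAPL2 and NRIP3 lie above every circle, heifer 604 is highest for all 3 genes, and on D55 diamonds and circles overlap for all 3.

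Heifer 604 contributed much of the D105 size but not of the direction. In this heifer the number of fetuses cannot be told apart from the extreme overgrowth of a fetus. Without it, the mean over heifers 557, 628 and 688 was 144 ± 5.74 CPM (SD, n = 3) for GABARAPL2, 5.36 ± 1.33 CPM for NRIP3 and 3.96 ± 0.942 CPM for IL4I1. The ratio of means to the 19 heifers with 1 fetus went from 1.45 to 1.35 for GABARAPL2, from 6.40 to 2.90 for NRIP3 and from 2.57 to 1.83 for IL4I1. Log2 fold changes became 0.45 ± 0.09 for GABARAPL2, 1.54 ± 0.40 for NRIP3 and 0.88 ± 0.22 for IL4I1 (SE). GABARAPL2 and NRIP3 still did not overlap between the groups. Heifer 604 was the highest for both, so leaving it out could not bring an overlap. Over all genes, however, no gene was called without heifer 604 (edgeR quasi-likelihood test; 733 had an unadjusted p under 0.05).

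Library 604 of D105 differed from the rest in other measures too. Of its reads on a gene or on none, 38.6% fell on no gene, against 25.1 to 36.7% in the 19 heifers with 1 fetus and 24.3, 28.6 and 30.9% in 688, 628 and 557. The value of 36.7% was that of heifer 664. With this share as a covariate, the D105 log2 fold changes were 0.48 ± 0.08 for GABARAPL2, 1.80 ± 0.37 for NRIP3 and 0.98 ± 0.18 for IL4I1, and 0 of 16270 genes were called. Beyond this covariate, the part of read quality in the difference was not tested.

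The difference was present within each treatment group, with 2 heifers carrying 2 fetuses in each. In IVP-LOS, where 604 belongs, the D105 log2 fold change against 7 heifers with 1 fetus was 0.61 ± 0.15 for GABARAPL2, 3.36 ± 0.50 for NRIP3 and 1.77 ± 0.33 for IL4I1. In IVP-Normal, against 4 heifers with 1 fetus, it was 0.51 ± 0.13, 1.10 ± 0.49 and 0.78 ± 0.34 in the same order. GABARAPL2 was thus of like size in both groups, while NRIP3 and IL4I1 were larger in IVP-LOS; whether the groups differ was not tested. Because IVP-LOS was in the BACKUP set and IVP-Normal in New on D105, treatment and set cannot be told apart here.

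On D55, in the libraries that the choice did not use, the same 4 heifers again stood high. They are the same animals, so D55 is a second sampling of them and not a second group of heifers. GABARAPL2 was at 109 CPM in heifer 604, 120 in 557, 133 in 688 and 151 in 628, against a lowest of 74.1, a median of 98.6 and a highest of 125 CPM with 1 fetus. Heifers 628 and 688 were above all 19, but 5 heifers with 1 fetus were above 604. The means of 128 ± 17.9 CPM (SD, n = 4) and 98.8 ± 14.6 CPM (n = 19) gave a log2 fold change of 0.38 ± 0.11 (SE).

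NRIP3 on D55 was at 5.67 CPM in heifer 557, 7.82 in 688, 10.5 in 628 and 13.0 in 604. The heifers with 1 fetus ranged from 1.02 to 6.23 CPM with a median of 4.07, and only the highest of them, IVP-LOS heifer 637, exceeded 557. Heifer 604 was thus already the highest of 23 on D55. The log2 fold change was 1.34 ± 0.35 (SE), from means of 9.24 ± 3.18 CPM (SD, n = 4) and 3.65 ± 1.70 CPM (n = 19).

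IL4I1 on D55 was at 3.37 CPM in heifer 557, 3.50 in 688, 3.67 in 604 and 4.73 in 628, against 1.18 to 3.77 CPM with a median of 2.38 in the 19 heifers with 1 fetus. AI heifer 648 at 3.77 and IVP-Normal heifer 560 at 3.37 CPM lay above 557, so only 628 stood clear. Means were 3.82 ± 0.621 CPM (SD, n = 4) and 2.41 ± 0.712 CPM (n = 19), a log2 fold change of 0.66 ± 0.22 (SE).

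Tested gene by gene on D55, each of the 3 differed between 2 and 1 fetus in a test of that gene alone (3 tests, not adjusted). These tests share their heifers with the D105 choice. Across genes, libraries of the same heifer deviated alike (r of 0.264 to 0.801 in 19 pairs with 1 fetus). The choice can therefore carry over to D55, and the p-values below may be too small. An exact two-sided permutation test of the difference in mean log2(CPM + 1) over all 8855 choices of 4 heifers of 23 gave p = 0.00407 for GABARAPL2, 0.00136 for NRIP3 and 0.00463 for IL4I1. All 4 heifers lay above the median of the 19 for each gene, which held for 6.4% of 16223 genes on D55. Exchanging labels only within IVP-Normal and within IVP-LOS (540 arrangements, AI left out), the exact permutation p was 0.0130, 0.0148 and 0.00926 in the same order. Without heifer 604 the exact permutation p was 0.00260 for GABARAPL2, 0.0117 for NRIP3 and 0.0104 for IL4I1, with log2 fold changes of 0.44 ± 0.12, 1.13 ± 0.40 and 0.68 ± 0.25 in the edgeR fit.

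None of the 3 passed when adjusted over all genes on D55. In edgeR's quasi-likelihood test 0 of 16223 genes were called (0%), 472 had an unadjusted p under 0.05 (2.91%), and DESeq2 called 1 gene. The unadjusted p was 0.00241 for GABARAPL2, 0.000912 for NRIP3 and 0.00610 for IL4I1 (edgeR), each with an adjusted p of 0.9999, at ranks 22, 10 and 49 of 16223. On D55, too, no gene of 16223 had all 4 heifers with 2 fetuses above all 19 with 1 (0%). The D55 differences of these 3 genes therefore stand on a single-gene test only, in the heifers whose D105 values chose the genes.

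**Figure D2:**
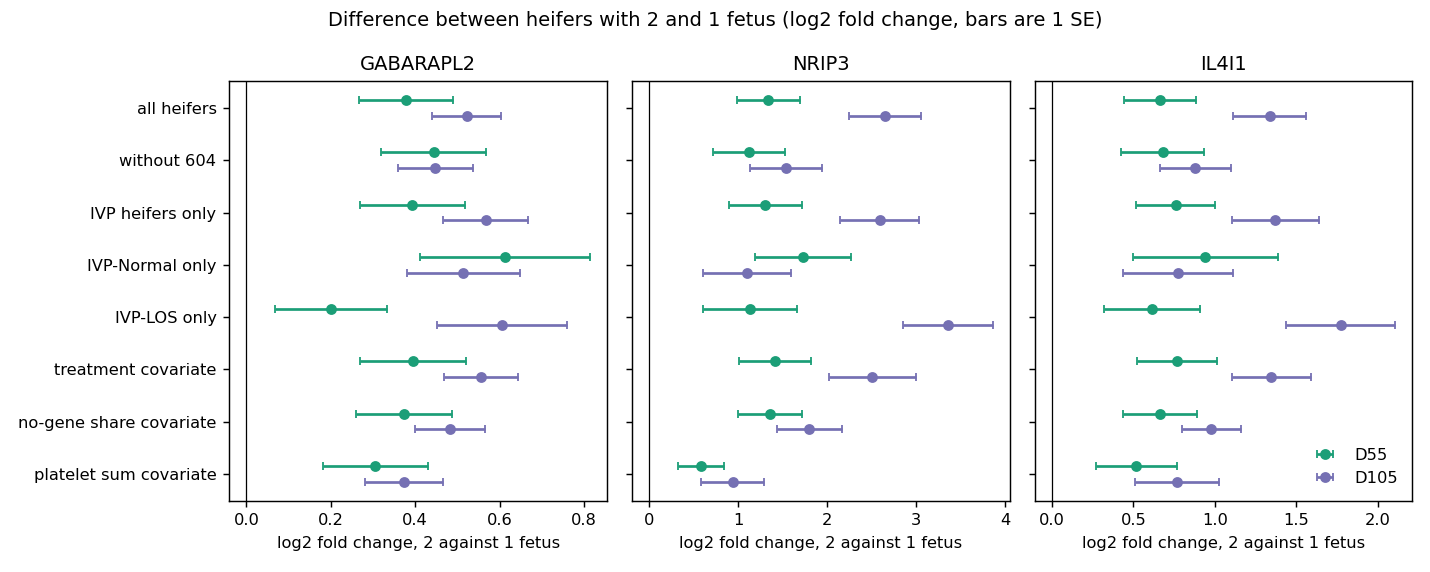
Log2 fold change between 2 and 1 fetus (x axis; points, with bars of 1 SE) for the 3 genes on D55 (green) and D105 (violet), with all 23 heifers, with subsets of heifers and with covariates. Every point lies above 0; leaving out 604 lowers the D105 value of NRIP3 from 2.65 to 1.54, and the platelet marker sum as a covariate lowers it to 0.94.

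Platelet transcripts, summed over markers, stood above the median with 1 fetus in each heifer with 2 fetuses, except 557 on D55. Only 604 on D105 lay above every heifer with 1 fetus. The count table holds 5 of the 6 platelet markers that were looked at, namely PF4 and PPBP (granule chemokines), ITGA2B and GP9 (surface receptor chains) and TUBB1 (platelet tubulin). Their summed level on D105 was 973 CPM in heifer 557, 1060 in 688, 1190 in 628 and 5906 in 604, against 254 to 1500 CPM with a median of 630 in the 19 heifers with 1 fetus. On D55 it was 768 CPM in 557, 1509 in 688, 2071 in 628 and 2024 in 604, against 329 to 2192 with a median of 801. PF4 and TUBB1, the 2 with an unadjusted p under 0.05 on both days, had D105 log2 fold changes of 2.07 ± 0.49 and 1.77 ± 0.39 (SE). Of the 5, 4 on D105 and 2 on D55 were higher at an unadjusted p under 0.05, against 5.73% and 1.71% of all genes, and none was called after adjustment (edgeR).

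NRIP3 followed the platelet markers among the 19 heifers with 1 fetus. These are the lower arm of the contrast that chose the genes, so their D105 values are not independent of the choice, while their D55 values took no part in it. On D55 the summed markers and NRIP3, both on the log2 scale, had Pearson's r = 0.85 (n = 19, permutation p = 2e-05) and Spearman's rho = 0.82 (permutation p = 4e-05); adjusted over 78 p-values of 39 relations, these were 0.000520 and 0.000780. On D105, r was 0.75 (permutation p = 0.000220, adjusted 0.00343) and rho 0.70 (permutation p = 0.00135, adjusted 0.0132). Leaving out heifers 512 and 648, the 2 farthest from the median of the markers, left r at 0.83 on D55 and 0.74 on D105. Among the 15 AI and IVP-LOS heifers alone, which form the BACKUP set on D105, r was 0.83 on D55 and 0.78 on D105; IVP-Normal, with 4 heifers, was too small for its own value.

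GABARAPL2 and IL4I1 did not pass in the same relation. For GABARAPL2 the r with the summed platelet markers was 0.26 on D55 (n = 19, permutation p = 0.284) and 0.36 on D105 (permutation p = 0.129). For IL4I1 it was 0.32 (n = 19, permutation p = 0.177) and 0.37 (permutation p = 0.120). Without heifers 512 and 648, r on D55 and D105 was 0.36 and 0.56 for GABARAPL2 and 0.57 and 0.41 for IL4I1. Among the 15 AI and IVP-LOS heifers it was -0.02 and 0.31 for GABARAPL2 and 0.08 and 0.29 for IL4I1. A weaker relation of these genes to the platelet markers is therefore not excluded. Both instead rose with the summed T cell markers on D55, with r = 0.81 for GABARAPL2 (n = 19, permutation p = 1e-05, the smallest the draws can give, adjusted 0.000520; rho = 0.85) and r = 0.69 for IL4I1 (permutation p = 0.000860, adjusted 0.00958; rho = 0.65). NRIP3 was also past 0.05 after adjustment on D55 with the sums of B cell (r = -0.71), monocyte (0.59) and T cell markers (0.58 by r, but not by rho). Without heifers 519 and 590 the T cell relations of GABARAPL2 and IL4I1 were 0.82 and 0.56, and within the 15 AI and IVP-LOS heifers 0.71 and 0.46. On D105 the relation was not seen again, with r = 0.29 (n = 19, permutation p = 0.233) and r = 0.19 (permutation p = 0.430).

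With the log2 of the summed platelet markers as a covariate, an alternative added after these values were seen, the difference between 2 and 1 fetus shrank and kept its sign in all 3 genes. On D55 it was 0.31 ± 0.12 for GABARAPL2, 0.58 ± 0.26 for NRIP3 and 0.52 ± 0.25 for IL4I1 (edgeR, unadjusted p = 0.0214, 0.0335 and 0.0467; adjusted p = 0.9999 for each). On D105 it was 0.37 ± 0.09, 0.94 ± 0.35 and 0.77 ± 0.26. The NRIP3 value thus went from 1.34 to 0.58 on D55 and from 2.65 to 0.94 on D105, and that of GABARAPL2 from 0.38 to 0.31 and from 0.52 to 0.37. In bulk RNA more cells of a type, or platelets, and more RNA per cell cannot be told apart, and the part of platelet RNA in these differences was not tested beyond this covariate.

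**Figure D3:**
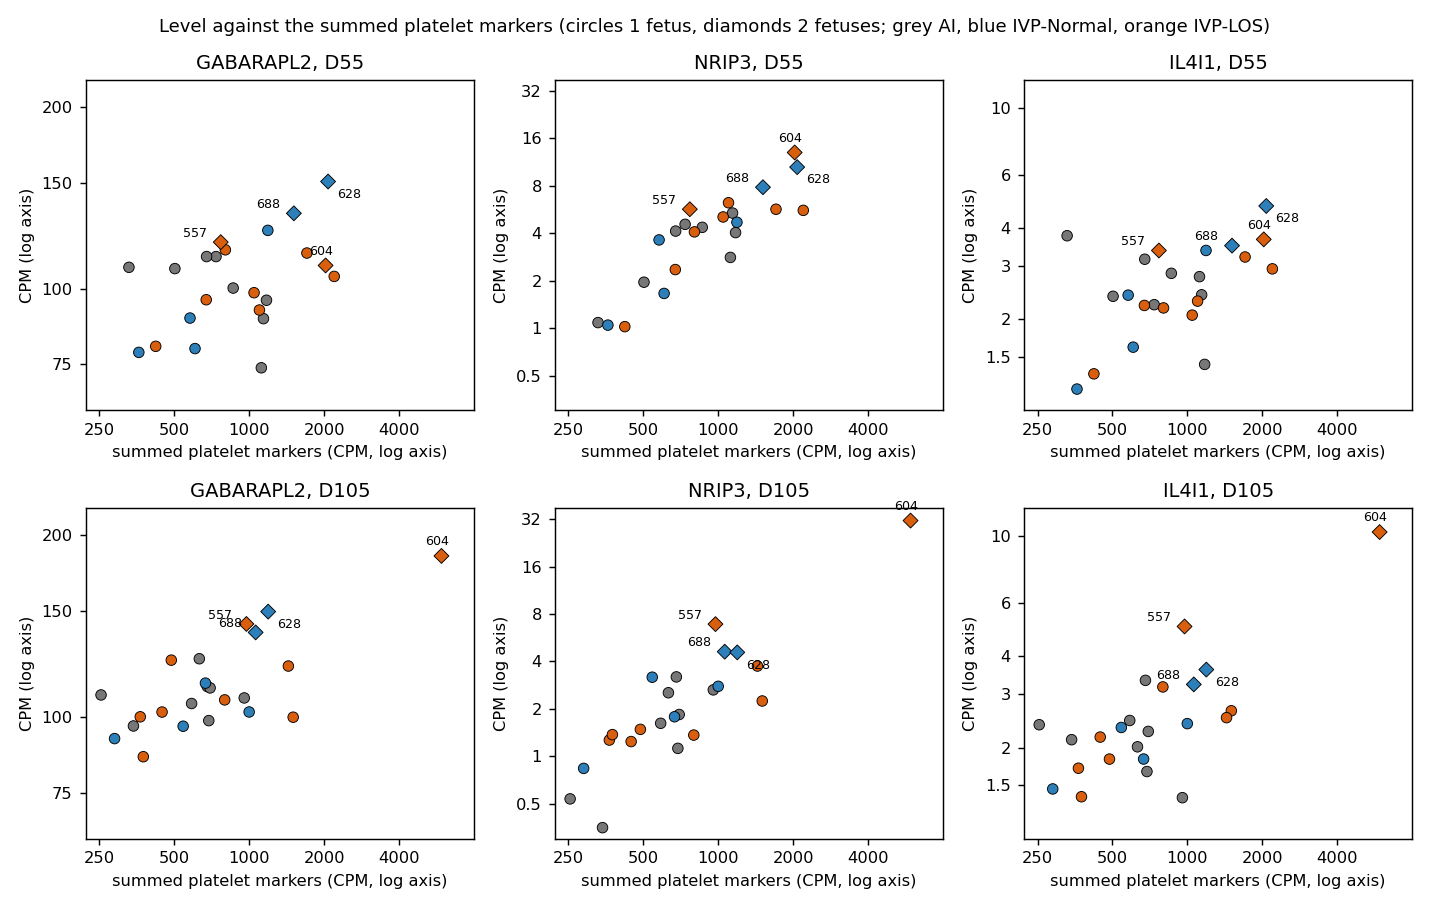
Level of each gene (y axis, CPM, log axis) against the summed level of 5 platelet markers in the same library (x axis, CPM, log axis), D55 above and D105 below, 1 point per heifer; circles carried 1 fetus, diamonds 2. NRIP3 rises along the axis among the circles on both days (r = 0.85 and 0.75), and library 604 of D105, at 5906 CPM of markers, lies far to the right.

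Markers of the other cell types were examined in the same way. Of 59 markers of all types tested on D55 and 60 on D105, none was called (edgeR), beside 0% and 0.0738% of all genes. Of 8 neutrophil, 8 monocyte, 7 B cell, 8 T cell and 6 natural killer cell markers, none had an unadjusted p under 0.05 on either day, nor had the 5 dendritic and 5 plasma cell markers. Markers of each leukocyte type were read on both days, as in the labelled tissue. At an unadjusted p under 0.05, 1 of 3 eosinophil markers on D55 and 1 of 4 on D105, and 2 of 4 red cell markers on each day, were higher, against 1.71% of all genes on D55 and 5.73% on D105. On D105 library 604 had a lower neutrophil sum (328 CPM) than all 19 heifers with 1 fetus (397 to 12371 CPM), and its monocyte sum of 130 CPM was below 18 of the 19. Its red cell marker sum was 703 CPM against 83.7 to 251 CPM. ALAS2, the first enzyme of heme synthesis in red cell precursors, had log2 fold changes with 2 fetuses of 1.33 ± 0.50 on D55 and 1.68 ± 0.54 on D105 (edgeR, adjusted p = 0.9999 and 0.216). HBB had 0.99 ± 0.43 and 1.75 ± 0.50. The other red cell markers tested were near 0, AHSP at -0.18 ± 0.22 and 0.02 ± 0.26 and GYPC at -0.13 ± 0.12 and 0.05 ± 0.15.

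The treatment groups were compared among heifers with 1 fetus, which the choice of genes used as 1 group without regard to treatment. On D55, GABARAPL2 was at 100 ± 13.6 CPM in AI (SD, n = 8), 93.2 ± 21.8 in IVP-Normal (n = 4) and 100 ± 12.7 in IVP-LOS (n = 7). NRIP3 was at 3.53 ± 1.45, 2.75 ± 1.70 and 4.29 ± 1.93 CPM, and IL4I1 at 2.62 ± 0.695, 2.14 ± 0.965 and 2.32 ± 0.614 CPM, in the same order. The 3 groups overlapped for each gene. The log2 fold change of IVP over AI was -0.04 ± 0.10 for GABARAPL2, 0.08 ± 0.35 for NRIP3 and -0.22 ± 0.21 for IL4I1 (edgeR, adjusted p = 0.913, 0.954 and 0.733).

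On D105 the corresponding values were 108 ± 8.81, 101 ± 9.38 and 106 ± 13.3 CPM for GABARAPL2 in AI, IVP-Normal and IVP-LOS. NRIP3 was at 1.73 ± 1.02, 2.15 ± 1.05 and 1.82 ± 0.916 CPM and IL4I1 at 2.20 ± 0.586, 2.00 ± 0.442 and 2.20 ± 0.618 CPM. The IVP over AI log2 fold changes were -0.05 ± 0.07, 0.17 ± 0.37 and -0.04 ± 0.18 (edgeR, SE). The choice of genes drew on these D105 values and favours a small spread among them, so they are a description with no test. No gene at all was called on D55 (0 of 15343, 0%; 9.09% at an unadjusted p under 0.05) or on D105 (0 of 15422, 0%; 6.17%), and DESeq2 called 0 and 1. On D55 no difference between the methods of conception was thus called for the 3 genes, and the D105 values allow no conclusion.

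Between the 2 days NRIP3 was lower on D105 in most heifers with 1 fetus. The choice of genes drew on the D105 values of these heifers and favours low ones, so the day change is a description with no test. NRIP3 went from 3.65 ± 1.70 to 1.85 ± 0.947 CPM (SD, n = 19), lower in 17 of 19 heifers, a log2 fold change of -0.98 ± 0.25 (SE). With the heifer as a block, since each gave both libraries, the value was -0.96 ± 0.19. GABARAPL2 had 0.10 ± 0.06 (0.11 ± 0.05 with the block) and was higher in 15 of 19 heifers, and IL4I1 had -0.16 ± 0.13 (-0.14 ± 0.11) and was lower in 13 of 19.

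The day difference of NRIP3 was smallest where both days were in the same library set. It was -1.02 ± 0.40 in AI, -1.23 ± 0.38 in IVP-LOS and -0.37 ± 0.54 in IVP-Normal (log2, SE). In AI and IVP-LOS, day and library set cannot be told apart. The mean change per heifer of log2(CPM + 1) was -0.20 ± 0.28 in IVP-Normal (SD, n = 4) and -0.79 ± 0.63 in the other 15. As D105 values chose the genes, these means are given as a description. With the platelet marker sum as a covariate the NRIP3 value was -0.55 ± 0.18; the median of that sum itself was 801 CPM on D55 and 630 on D105.

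The 4 heifers with 2 fetuses did not move together. On the log2(CPM + 1) scale NRIP3 rose by 1.21 in heifer 604 and by 0.24 in 557 from D55 to D105, and fell by 1.04 in 628 and by 0.65 in 688. IL4I1 rose by 1.27 in 604 and 0.46 in 557, and fell by 0.31 in 628 and 0.09 in 688. GABARAPL2 rose by 0.75 in 604, 0.25 in 557 and 0.05 in 688 and fell by 0.01 in 628. Both IVP-LOS heifers thus rose and both IVP-Normal heifers fell in NRIP3 and IL4I1. Among the 19 heifers with 1 fetus the change of NRIP3 ran from -2.23 to 0.23, and that of IL4I1 from -0.50 to 0.85. Since D105 values chose the genes, this is a description with no test.

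**Figure D4:**
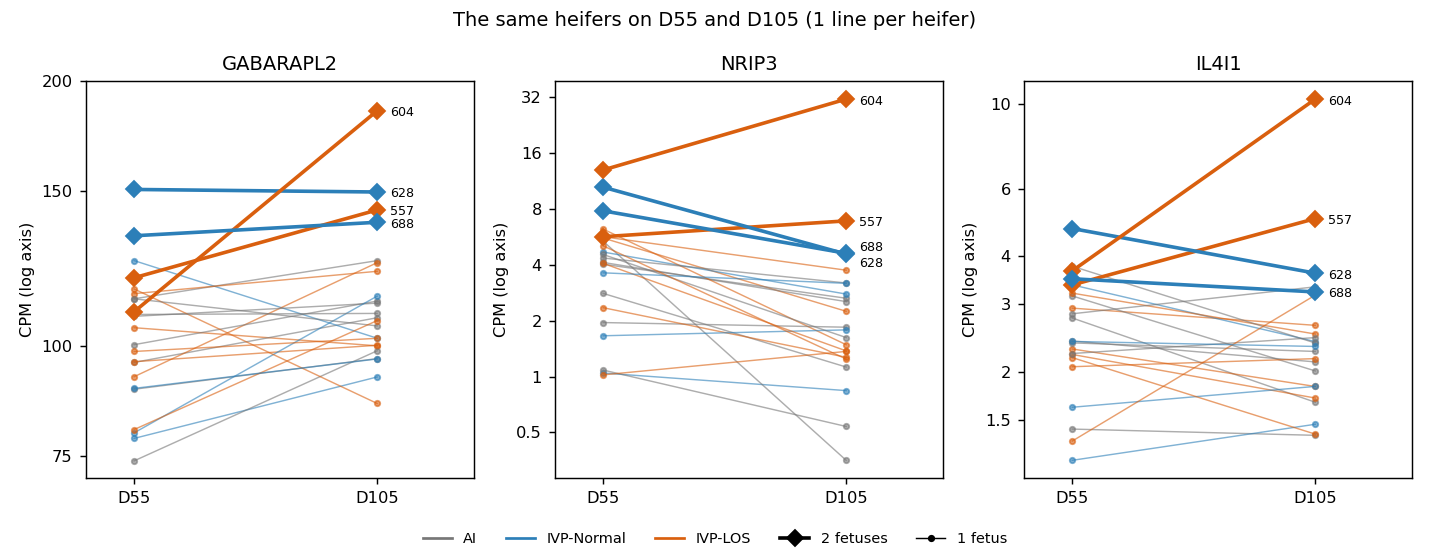
Level of each gene (CPM, log axis) on D55 and D105, 1 line per heifer, coloured by treatment group; thick lines with diamonds are the 4 heifers with 2 fetuses. Most thin lines of NRIP3 go down (17 of 19), the thick orange lines of 604 and 557 go up for all 3 genes, and the blue lines of 628 and 688 go down for NRIP3 and IL4I1.

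Among heifers with 1 fetus no relation between the level on D55 and that on D105 passed after adjustment. The choice of genes drew on these D105 values and favours a small spread among them. A low r therefore does not show that a heifer's rank was lost. Between D55 and D105, r was 0.17 for GABARAPL2 (n = 19, permutation p = 0.475; rho = 0.24), 0.40 for NRIP3 (permutation p = 0.0856; rho = 0.33) and 0.37 for IL4I1 (permutation p = 0.119; rho = 0.46), none past 0.05 after adjustment over the 39 relations. Without the 2 heifers farthest from the D55 median (546 and 560 for GABARAPL2, 519 and 664 for the others), r was 0.17, 0.32 and 0.58, and among the 15 AI and IVP-LOS heifers 0.16, 0.35 and 0.20.

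Genes most like each of the 3 were sought by the smaller of the Spearman correlations over the 23 D55 and the 23 D105 libraries, among 13856 genes of at least 1 CPM on average; these are descriptions that include the heifers with 2 fetuses. For NRIP3 they were CLU, a secreted chaperone stored in platelet granules (0.84 and 0.83), MTURN (0.82 and 0.82) and the unnamed LOC104974758 (0.85 and 0.82). For GABARAPL2 they were YPEL5 (0.69 and 0.82), MAP1LC3A, another ATG8 family gene (0.68 and 0.75), and MYL12A, a myosin light chain (0.67 and 0.72). For IL4I1 they were ZFYVE27 (0.64 and 0.72), LOC788142 (0.64 and 0.67) and NDUFA4, a mitochondrial respiratory chain protein (0.69 and 0.64). By likeness to IL4I1, NRIP3 was in place 9 and GABARAPL2 in place 12. By likeness to GABARAPL2, NRIP3 was in place 17 and IL4I1 in place 22. By likeness to NRIP3, IL4I1 was in place 122 and GABARAPL2 in place 127. The 3 genes were chosen for high values in the same D105 libraries, so their likeness is partly built in.

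With 2 fetuses CLU had a log2 fold change of 1.04 ± 0.43 on D55 and 2.30 ± 0.46 on D105, and MTURN of 0.68 ± 0.22 and 1.16 ± 0.26 (edgeR; adjusted p = 0.9999 on D55 for both, and 0.0533 and 0.0836 on D105). Neither was called. YPEL5 had 0.24 ± 0.11 and 0.41 ± 0.12 (adjusted p = 0.9999 and 0.173). The genes most like IL4I1 had smaller values, with ZFYVE27 at 0.09 ± 0.08 and 0.12 ± 0.07 (adjusted p = 0.9999 and 0.499).

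GABARAPL2 was the only ATG8 family gene called on D105, by the rule that chose it. The family has 6 members in the table and 5 passed the filter, MAP1LC3C being near 0 (0.0401 ± 0.0586 CPM with 1 fetus on D105). MAP1LC3A, which marks autophagosomes as GABARAPL2 does, had a log2 fold change with 2 fetuses of 0.11 ± 0.15 on D55 and 0.54 ± 0.16 on D105 (edgeR, adjusted p = 0.9999 and 0.162). GABARAP had -0.03 ± 0.08 and 0.19 ± 0.11, GABARAPL1 0.08 ± 0.11 and 0.01 ± 0.19, and MAP1LC3B 0.10 ± 0.09 and -0.03 ± 0.09, none called on either day (adjusted p = 0.534 or more). Without GABARAPL2 the median of the other 4 was 0.09 on D55 and 0.10 on D105, beside -0.01 and -0.02 over all genes.

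Between days the values of the family were ordered differently. In the 19 heifers with 1 fetus the other 4 genes rose, GABARAPL1 by 0.48 ± 0.08, MAP1LC3A by 0.44 ± 0.09, MAP1LC3B by 0.17 ± 0.05 and GABARAP by 0.16 ± 0.06 (edgeR, adjusted p = 4.3e-05, 0.000515, 0.0216 and 0.0473). Over all 15308 genes 2336 were called between days (15.3%), of which 1468 were higher on D105 (9.59%) and 868 lower (5.67%), and 4454 were called with the heifer as a block. GABARAPL2 had 0.10 ± 0.06, and whether it differs from the other 4 was not tested. Here again day and library set are tied together in 15 of the 19 heifers.

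**Figure D5:**
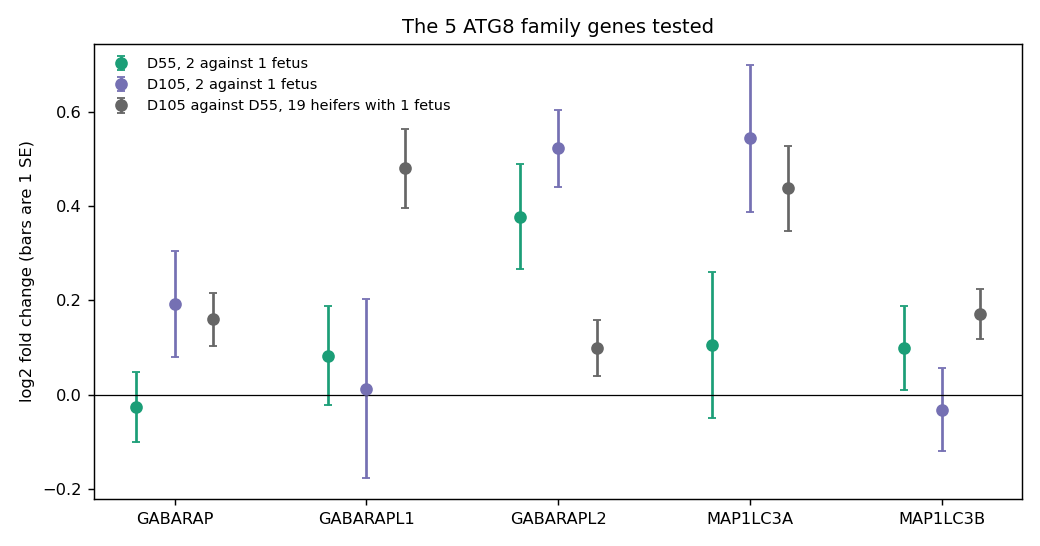
Log2 fold change (y axis; bars are 1 SE) of the 5 ATG8 family genes that passed the filter, for 2 against 1 fetus on D55 and on D105 and for D105 against D55 in the 19 heifers with 1 fetus. GABARAPL2 is higher with 2 fetuses on both days (0.38 and 0.52) and near 0 between days, whereas GABARAPL1 is near 0 with 2 fetuses and higher on D105 (0.48).

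The rest of the autophagy machinery showed no called gene for the number of fetuses on either day. Of 11 genes that conjugate ATG8 proteins, the medians were 0.02 on D55 and -0.04 on D105; the smallest p-values were those of ATG10 (0.18 ± 0.15) and ATG3 (-0.09 ± 0.09) on D55, and of the protease genes ATG4A (-0.48 ± 0.18) and ATG4D (0.25 ± 0.12) on D105. Of 16 genes that start the autophagosome or build its membrane, 3 were lower and 1 higher at an unadjusted p under 0.05 on D105, against 11.7% of all genes in either direction. Among them ATG2B, a lipid transfer protein, had -0.30 ± 0.09 and PIK3C3, the lipid kinase of the pathway, -0.24 ± 0.08 (edgeR, adjusted p = 0.173 and 0.223); on D55 WIPI1 (-0.41 ± 0.33) and ULK2 (-0.09 ± 0.08) came first. The medians of this list were -0.03 on D55 and -0.07 on D105.

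Autophagy receptors, 12 genes, had medians of -0.03 on both days. SQSTM1, the p62 receptor that GABARAPL2-type proteins bind, was at 324 ± 8.20 CPM with 2 fetuses and 290 ± 31.9 with 1 on D55 (log2 fold change 0.16 ± 0.08), and at 326 ± 64.5 and 269 ± 21.0 CPM on D105 (0.26 ± 0.08; edgeR, adjusted p = 0.9999 and 0.191). RETREG1, a receptor for the endoplasmic reticulum, had 0.38 ± 0.14 on D55, and NCOA4, the ferritin receptor, -0.31 ± 0.20 on D105 (adjusted p = 0.9999 and 0.565). Of 13 genes of fusion with the lysosome, the medians were -0.02 on both days, with LAMP1 (-0.18 ± 0.17) and VAMP8 (-0.13 ± 0.13) first on D55 and EPG5 (-0.43 ± 0.16) and VAMP8 (0.30 ± 0.14) on D105, none of them called.

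For the other genes around IL4I1 the picture was similar. Of 17 genes of aromatic amino acid breakdown and the AHR, 14 passed the filter and none was called for the number of fetuses, with medians of -0.04 on D55 and -0.02 on D105. KMO (0.68 ± 0.33) and AADAT (-0.68 ± 0.35), both enzymes of the kynurenine route, had the smallest p-values on D55. On D105 these were ARNT, the partner of the AHR (-0.43 ± 0.18), and NQO1, one of its targets (0.69 ± 0.29; edgeR, adjusted p = 0.335 and 0.342). The AHR targets CYP1A1, CYP1B1 and AHRR were at 0.0524 CPM or less on average in each group and day and were not tested.

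Of the 19 genes of interleukin-4 and interleukin-13 signalling, 15 were tested on D55 and 14 on D105, with none called and none at an unadjusted p under 0.05. Their medians were 0.05 and -0.04. JAK1 came first on both days (0.12 ± 0.07 and -0.17 ± 0.09), followed by ARG1 on D55 (0.61 ± 0.36) and SOCS1 on D105 (0.71 ± 0.49; edgeR, adjusted p = 0.594). Among the genes listed beside NRIP3, NRIP1 had 0.03 ± 0.15 and -0.17 ± 0.17 and NRIP2 0.06 ± 0.32 and 0.69 ± 0.45. ASPRV1, a skin aspartyl protease, had -0.54 ± 0.40 and -0.45 ± 0.47 (edgeR, adjusted p = 0.574 or more for all of these). None of these genes listed beside NRIP3 was called on either day, and a shared name does not make them its relatives.

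Neighbouring genes, read from the RefSeq gene list of another assembly (ARS-UCD2.0), included none that was called for the number of fetuses. ADAT1, which overlaps GABARAPL2, had log2 fold changes with 2 fetuses of 0.00 ± 0.11 on D55 and 0.09 ± 0.15 on D105, and TMEM231, the gene before it, 0.47 ± 0.23 and -0.03 ± 0.23. Beside NRIP3, SCUBE2 had 0.18 ± 0.40 and 0.07 ± 0.52 and TMEM9B 0.10 ± 0.09 and 0.20 ± 0.07 (edgeR, adjusted p = 0.9999 and 0.215 for TMEM9B). IL4I1 overlaps NUP62, ATF5 and the noncoding LOC107131441. NUP62 had 0.01 ± 0.07 and 0.16 ± 0.11 and ATF5 -0.33 ± 0.16 and 0.23 ± 0.17.

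LOC107131441 was at 0.842 ± 0.304 CPM with 2 fetuses and 0.471 ± 0.251 with 1 on D55 and at 1.13 ± 0.775 and 0.489 ± 0.324 on D105, log2 fold changes of 0.83 ± 0.35 and 1.16 ± 0.39 (edgeR, adjusted p = 0.9999 and 0.232). TBC1D17 and SIGLEC11, the genes on either side of IL4I1, had -0.03 ± 0.07 and 0.07 ± 0.44 on D55 and 0.10 ± 0.11 and -0.11 ± 0.55 on D105. Reads that fall on 2 genes were set aside by the authors' counting, 1.38 to 1.71% of all entries in a library's count column, and whether the counting used strand is not given in the sources used here. Reads of IL4I1 and the overlapping LOC107131441 may therefore not be fully separated.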

How the data were processed

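Leukocyte RNA of 23 heifers on D55 and D105 was sequenced as 100-base paired ends. Per the labels and the study's methods, the authors removed low-quality bases and short reads, mapped the rest to ARS-UCD1.2 by means of HISAT2 2.1.0, and counted reads per NCBI gene with HTSeq (union mode); these raw counts were deposited. A second deposited table of Ensembl counts was not used. Summary lines were left out of totals. Fetus number came from the study's list of dams.

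Comparisons used R 4.3.3 and edgeR 4.0.16: TMM, filterByExpr (minimum count 10), quasi-likelihood F-test, Benjamini-Hochberg over all genes, calls at an FDR of 0.05; SE is the absolute log2 fold change over the square root of F. DESeq2 1.42.0 was an alternative. Covariates for platelet markers and reads on no gene, the day change within AI and within IVP-LOS, fits without heifer 637, and the exact tests without 557, 628 or 688 were added after seeing the data. The fits were tested on simulated counts. Exact permutation tests and correlations (100000 permutations) used scipy 1.17.1 on log2(CPM + 1). Same-heifer libraries were paired: the correlation of their deviations from group means was 0.264 to 0.801 in 19 pairs. Named genes were the 3, the next 2 in rank, the 3 most like each, the ATG8 family and the genes listed beside NRIP3. To these were added the 2 of each other list with the smallest p per day, and neighbouring genes. The genes and lists were chosen with earlier results of these data known. Nothing beyond the heifer number separates replicates; each library is 1 heifer on 1 day.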

Additional observations from a re-analysis of the deposited data

Results flagged for a closer look

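Among 24 groups of 4 to 8 heifers tested for 1 library far from the rest (3 genes, 2 days, and the heifers with 2 fetuses or each treatment group with 1), 2 were past Dixon's 95% limit, and chance gives about 1 in 20. NRIP3 in heifer 604 on D105, at 31.3 CPM, stood far above the other 3 heifers with 2 fetuses. NRIP3 in heifer 602 on D105, at 3.74 CPM, stood above the other 6 IVP-LOS heifers with 1 fetus. Both flags rest on D105 values, which chose the genes, and on CPM rather than its log2. They are descriptions only.

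The change from D55 to D105 went opposite ways in the heifers with 2 fetuses. On the log2(CPM + 1) scale both IVP-LOS heifers rose and both IVP-Normal heifers fell, with a difference of their means of 1.57 for NRIP3 and 1.07 for IL4I1. The difference was not tested, and treatment group and D105 library set cannot be told apart in it.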

How the results depend on the processing

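For 2 against 1 fetus on D55 the 3 genes kept their sign and stayed above an FDR of 0.05 in all 17 alternatives, and the single-gene exact permutation tests stayed under 0.05 in all 7 alternatives for each gene; leaving out 1 heifer with 2 fetuses at a time gave differences of 0.30 to 0.45 for GABARAPL2, 1.03 to 1.39 for NRIP3 and 0.44 to 0.57 for IL4I1. Calls over all genes on D55, 0, became 1 with DESeq2, 2 with no expression filter, 1 in IVP-Normal only, 1 without heifers 604 and 664, and 0 to 1 when 1 heifer with 2 fetuses was left out. On D105 the 3 genes kept their sign in all 19 alternatives. Without heifer 669, whose number differs in the study's list, 8 genes were called on D105. The 12 calls of D105 became 182 with DESeq2, 142 with edgeR's likelihood ratio test, 0 in IVP heifers only (1115 genes at an unadjusted p under 0.05), 1 in IVP-Normal only (the set New), 0 in IVP-LOS only (1563), 36 in the set BACKUP, 0 without heifers 604 and 664 (1022), 1 with treatment as a covariate, 0 with the share of reads on no gene (1140) and 0 with the platelet sum as a covariate (415); leaving out 1 heifer gave 0 (604; 733), 12 (628), 50 (557) and 124 (688). The 2336 calls between days became 4454 with the replicate block, 0 in IVP-Normal (1116), 1517 in AI and 18 in IVP-LOS. AI against IVP on D105 gave 1 call with DESeq2 in place of 0. On D55, AI against IVP-LOS turned GABARAPL2 to 0.00506 and AI against IVP-Normal turned NRIP3 to -0.36, neither called. The block left the sign of the day difference of the 3 genes as it was. The cause of the changed calls was not tested, and each subset holds fewer heifers. The Ensembl counts were not run as an alternative, because the gene list used here gives no Ensembl identifiers. With 4 heifers carrying 2 fetuses, small differences of low-count genes such as NRIP3 cannot be resolved.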
